A study of Homo sapiens with 18 samples.

Results

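The 9 genes described here encode the receptors through which cells sense interferons, the kinases bound to those receptors and a pair of brakes on them: IFNAR1, IFNAR2, IFNGR1, IFNGR2, JAK1, JAK2, TYK2, SOCS1 and SOCS3. They were taken by name, 9 of the 19784 genes in each library's table, and all 9 were high enough to be tested in every comparison. In the second experiment SOCS3 was so only through the ERAA libraries. The cells were THP-1, a line of human monocytic leukaemia (AML) with an MLL-AF9 fusion, and 18 libraries of poly(A) RNA were sequenced. Experiment 1 comprised 4 libraries each of cells with added PHF8 (PHF8), of cells with the F279S form of PHF8 (F279S) and of the parental line (wt), with no treatment labelled. PHF8 is a histone demethylase, and F279S is a substitution in its catalytic domain. Experiment 2 comprised 2 libraries each of the lines titled ERDD (genotype PHF8DD, labelled with 4-hydroxytamoxifen, 4-OHT), ERAA (genotype PHF8AA, labelled with 4-OHT) and ERPHF8 (genotype PHF8, no treatment named), all from day 3. The stated dose of 4-OHT was 100 nM, and a comparison with ERPHF8 is also one with and without that label. The labels do not say which residues AA and DD stand for, whether a line is a clone or a pool, or whether the libraries of a group came from separate cultures, so p-values measure the spread between these libraries, which may be technical.

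Type I interferons bind IFNAR1 and IFNAR2, whose tails hold TYK2 and JAK1, and interferon gamma binds IFNGR1 and IFNGR2, whose tails hold JAK1 and JAK2. The kinases phosphorylate STAT proteins, and a complex that contains STAT2 and IRF9 switches on interferon-stimulated genes. SOCS1 and SOCS3 are themselves STAT targets that bind the kinases or receptors and end the signal, and in myeloid cells SOCS3 is best known for limiting the response to IL-6 and G-CSF.

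Of the 9 genes, 8 had start sites in the RefSeq promoter table (GRCh38.p14) used here, with 16 windows of 250 bases before a start. IFNAR2 had none. Each window was searched on both strands for TTCNNNGAA, the core of the gamma-activated site that STAT dimers bind, and for GAAA followed after 2 bases by GAAA, the core of the element bound by the complex with STAT2 and IRF9; the motifs can overlap. The first is in 6.57% and the second in 3.02% of all 35116 windows of that length, and among the 16 windows a match was found in 1, that of SOCS1. Given here, 5′ to 3′ on the minus strand, are the upstream of the SOCS3 windows, since SOCS3 differed most between the lines, that of SOCS1, its close relative, and the part of the IFNGR1 window outside the deposited gene, since IFNGR1 was the receptor with the largest differences. The SOCS3 stretch ends 848 bases before the deposited gene, and the other SOCS3 window lies inside that gene. Neither shows the sequence next to the deposited start, so the lack of a match in them says nothing about it. Windows of other genes can also lie inside the gene, such as the JAK2 window whose start is 56499 bases from the deposited start. The SOCS1 stretch ends 25 bases before the deposited gene. Capitals mark the SOCS1 match, which begins 113 bases before the RefSeq start, not the deposited one. They lie at chr17:78360926-78361175, chr16:11256205-11256454 and chr6:137219450-137219635.
SOCS3: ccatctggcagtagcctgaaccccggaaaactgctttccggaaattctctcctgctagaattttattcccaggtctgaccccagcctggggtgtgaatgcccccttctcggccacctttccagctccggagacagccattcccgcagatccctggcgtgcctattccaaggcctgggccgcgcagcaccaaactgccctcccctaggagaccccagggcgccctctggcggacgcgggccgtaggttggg
SOCS1: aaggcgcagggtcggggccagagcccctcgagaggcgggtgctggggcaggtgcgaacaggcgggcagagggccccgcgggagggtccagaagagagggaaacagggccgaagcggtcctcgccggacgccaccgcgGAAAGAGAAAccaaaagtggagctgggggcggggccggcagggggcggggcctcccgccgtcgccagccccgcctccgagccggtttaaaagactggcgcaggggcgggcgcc
IFNGR1: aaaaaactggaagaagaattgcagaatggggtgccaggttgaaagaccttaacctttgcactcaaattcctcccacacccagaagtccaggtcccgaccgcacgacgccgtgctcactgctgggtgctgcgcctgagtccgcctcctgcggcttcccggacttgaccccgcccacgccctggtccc

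Values are given as CPM, a gene's share of all reads of its library scaled to a common total. Library totals were 18.2 to 51.5 M reads in the first experiment and 40.6 to 41.3 M in the second. PHF8 RNA averaged 2020 ± 89.6 CPM in PHF8, 5381 ± 320 CPM in F279S and 50.6 ± 3.99 CPM in wt (SD, n = 4 each), and 1109 ± 14.8 CPM in ERDD, 2150 ± 219 CPM in ERAA and 1906 ± 8.51 CPM in ERPHF8 (SD, n = 2 each), so the lines differ in the amount as well as the form of PHF8 RNA. All 12 monocytic and myeloid markers examined had a median of at least 1 CPM, as did 0 of 4 T cell, 0 of 5 erythroid, 0 of 5 epithelial, 1 of 5 fibroblast and 3 of 5 B cell markers. Summed myeloid markers were lower in PHF8 (1659 to 2204 CPM) than in wt (2216 to 2987 CPM), while F279S (2140 to 2685 CPM) overlapped both. They were 2122 to 2158 CPM in ERDD and 2214 to 2265 CPM in ERAA, both above ERPHF8 (1782 to 1791 CPM). Summed B cell markers were higher in PHF8 (20.7 to 26.6 CPM) than in F279S (9.10 to 19.3 CPM) and wt (9.41 to 19.5 CPM), and higher in ERDD (22.9 to 23.3 CPM) than in ERAA (13.3 to 13.6 CPM) and ERPHF8 (12.3 to 12.9 CPM), with MS4A1 at most 0.0597 CPM. Summed fibroblast markers, chiefly collagens, reached 32.0 CPM in PHF8 library 1 and 35.6 CPM in F279S library 2, against 0.927 to 4.90 CPM in the other 16. Libraries 1 and 2 of the first experiment stood apart from libraries 3 and 4 in every group, and 62.9% of all genes tested passed between these library pairs. The part of these differences in the results below was not tested, except where values without the libraries concerned are given. In bulk RNA, fewer cells of a type and less RNA per cell cannot be told apart.

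Whether reads in introns were counted is not stated, and if they were, a scale per kilobase of exon overstates genes with long introns. With that limit, levels between genes were compared per kilobase of exon. On that scale (CPM per exon kb, median of 18 libraries) the order was IFNGR2 (46.3), TYK2 (33.9), IFNGR1 (24.8), IFNAR2 (15.7), JAK1 (14.6), IFNAR1 (13.2) and JAK2 (11.1), with SOCS1 (1.30) and SOCS3 (1.30) far below. Both interferon gamma receptor subunits thus had higher medians than both type I receptor subunits, although IFNGR2 and IFNAR2 may include reads of overlapping genes, and each receptor and kinase exceeded both brakes in every library. Neighbours in the order did not always keep it: IFNAR2 exceeded JAK1 in 13 of 18 libraries, JAK1 exceeded IFNAR1 in 16, TYK2 exceeded IFNGR1 in 17 and SOCS1 exceeded SOCS3 in 10. The brakes also varied most. SOCS3 spanned 16.7-fold between its lowest and highest library in CPM and SOCS1 4.41-fold, whereas the receptors and kinases spanned 1.34-fold (IFNGR2) to 2.30-fold (IFNGR1). SOCS3 rested on 23 to 484 reads a library and SOCS1 on 17 to 199, while each of the other genes had at least 965.

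**Figure D1:**
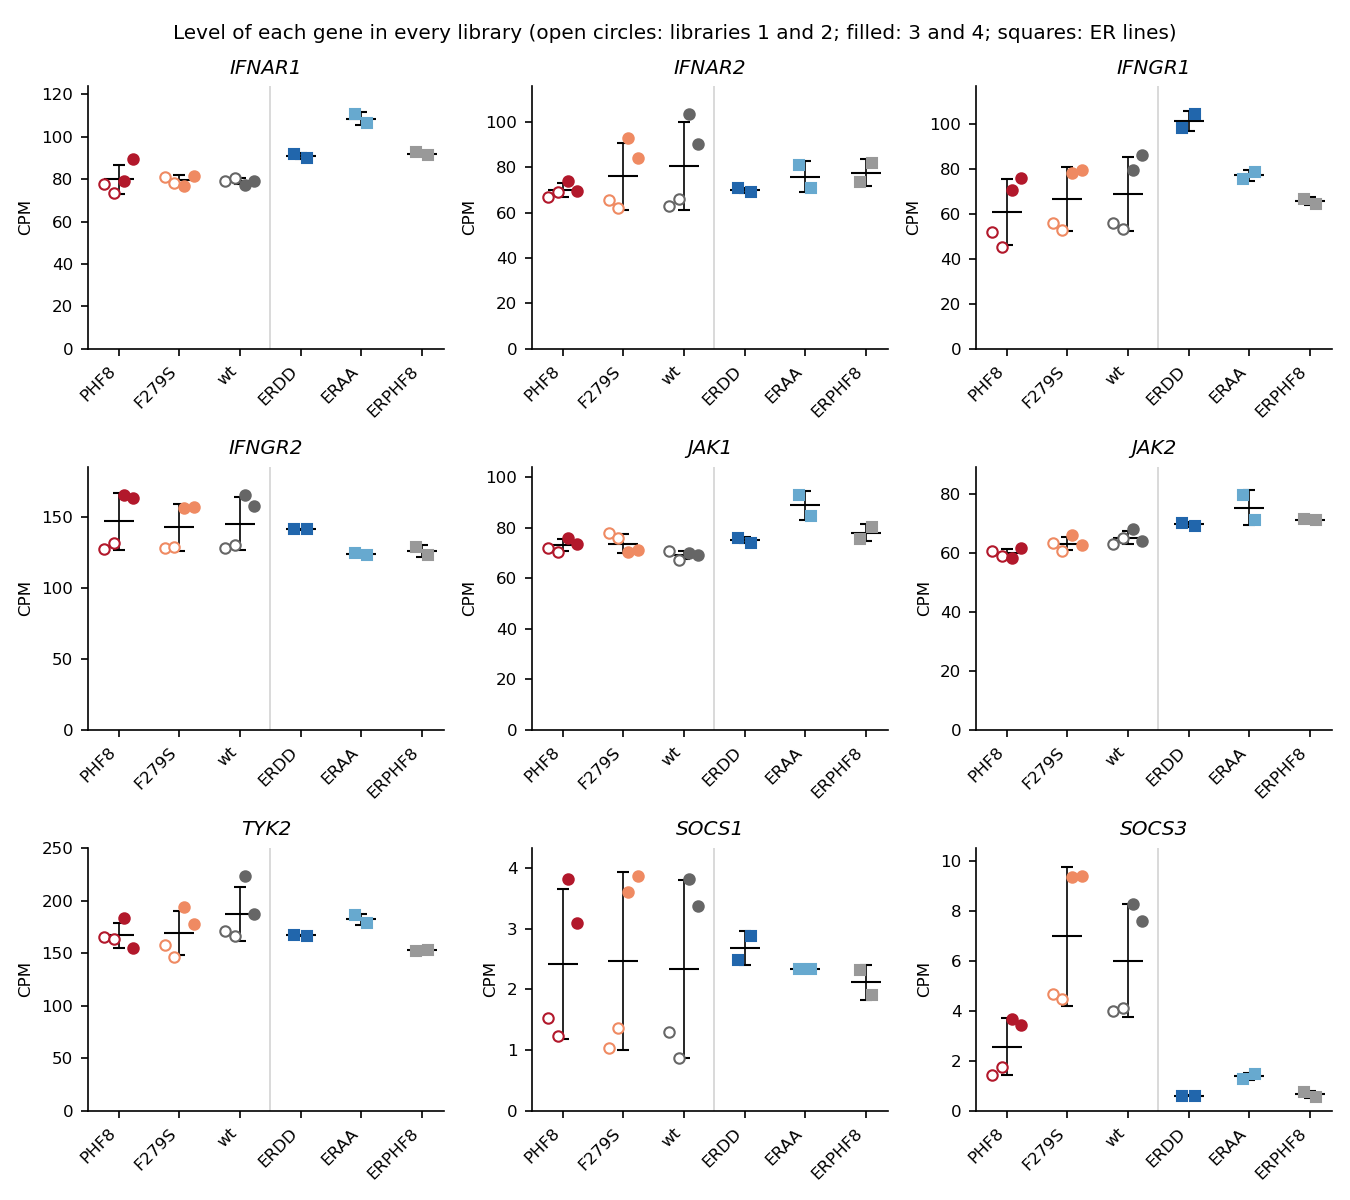
CPM of the 9 genes (y axis, linear, each panel with its own scale) in every library of the 6 groups; open circles are libraries 1 and 2, filled circles libraries 3 and 4, squares the ER lines, and black bars the mean ± SD. SOCS3 is lower in all 4 PHF8 libraries than in any F279S or wt library. SOCS3, SOCS1, IFNGR1 and IFNGR2 separate libraries 1 and 2 from 3 and 4 in each group of the first experiment, as does IFNAR2, narrowly in PHF8.

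The first comparison set cells with added PHF8 against parental cells. SOCS3 was the gene of the 9 that changed, and it fell. SOCS3 (chromosome 17, 78356778 to 78360077, hg38, minus strand) stood at 1.42, 1.77, 3.68 and 3.42 CPM in PHF8 libraries 1 to 4, against 4.01, 4.12, 8.28 and 7.60 CPM in wt libraries 1 to 4. The groups did not overlap, and the mean was 2.33-fold lower in PHF8. The log2 change was -1.09 ± 0.34 (SE; limma, adjusted p = 0.041 over 13683 genes). In all, 1 of 9 genes passed (adjusted p under 0.05, on log2(CPM + 0.5)), where 21% of all genes tested did, a smaller share than the background.

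The fall of SOCS3 was of like size within each library pair. From libraries 1 and 2 it was -1.13 (limma, adjusted p = 1.6e-06). From libraries 3 and 4, which hold neither library with collagen reads, it was -1.06 (limma, adjusted p = 0.00037). The replicate number, added to the fit as a block, also takes up the split between the library pairs. With it the log2 change of -1.09 had an SE of 0.08 (limma, adjusted p = 5.3e-06). Without a block, the call was lost when PHF8 library 1 or 2 or wt library 3 or 4 was left out. These fits gave -0.89, -0.98, -0.93 and -0.97 with adjusted p of 0.12, 0.11, 0.10 and 0.10 (limma). The call was kept without PHF8 library 3 or 4 or wt library 1 or 2. Each such fit leaves the library pairs unequal in number. SOCS3 itself differed by -0.93 between libraries 1 and 2 and libraries 3 and 4 on the log2 scale. A count-weighted fit of the recovered reads (voom) gave -1.20 and an adjusted p of 0.064, and testing all genes without a minimum level gave an adjusted p of 0.060 for the same change. Without the libraries with collagen reads SOCS3 gave -0.89 ± 0.34 (limma, adjusted p = 0.11). Of these libraries only PHF8 library 1 is in this comparison, so the change is the one found without that library. In that fit the collagen reads and the unequal library pairs cannot be told apart.

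The relative SOCS1 (chromosome 16, 11254405 to 11256179, minus strand) did not pass. It stood at 1.52, 1.23, 3.82 and 3.09 CPM in PHF8 libraries 1 to 4, against 1.30, 0.88, 3.81 and 3.37 CPM in wt libraries 1 to 4. Within each pair the groups overlapped, and the log2 difference of 0.10 ± 0.47 had a 95% interval of -0.92 to 1.118. With the replicate block the interval was -0.20 to 0.40, which holds no change as large as that of SOCS3. The SOCS1 span lies wholly inside RMI2 on the other strand. How reads in overlapping genes were counted is not given in the sources used here. If the reads of RMI2 lay evenly over its span they would give 0.34 to 0.66 CPM over the length of SOCS1 in the 18 libraries, so part of each SOCS1 value is uncertain.

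Among the receptors, IFNGR1, the ligand-binding chain of the interferon gamma receptor (chromosome 6, 137197484 to 137219449, minus strand), gave 51.8, 45.5, 70.5 and 75.9 CPM in PHF8 libraries 1 to 4, against 56.0, 53.4, 79.7 and 86.0 CPM in wt libraries 1 to 4. Each PHF8 library lay below the wt library of its number, although the groups overlapped. The log2 difference was -0.17 ± 0.21 (limma, adjusted p = 0.64), and with the replicate number as a block it was -0.17 ± 0.04 and passed (limma, adjusted p = 0.0078). The block raised the share of all genes that passed to 41.4%, and IFNGR1 and SOCS3, 2 of the 9, passed with it. With each pair averaged, IFNGR1 had an adjusted p of 0.18 (limma).

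The other chain of that receptor, IFNGR2 (chromosome 21, 33402896 to 33479348, plus strand), differed by 0.02 ± 0.12 on the log2 scale, with a mean of 147 ± 20.1 CPM in PHF8 and 145 ± 18.9 CPM in wt (SD, n = 4 each). IFNAR1, the signalling chain of the type I receptor (chromosome 21, 33324477 to 33359862, plus strand), averaged 79.99 ± 6.75 CPM in PHF8 and 79.1 ± 1.37 CPM in wt, a log2 difference of 0.01 ± 0.06 with a 95% interval of -0.12 to 0.15. For IFNAR1 a change of more than about 0.15 either way lies outside that interval.

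IFNAR2, the high-affinity chain of the type I receptor (chromosome 21, 33229901 to 33265675, plus strand), behaved differently in the library pairs. It stood at 66.9, 69.1, 74.0 and 69.4 CPM in PHF8 libraries 1 to 4, against 63.0, 66.1, 103 and 90.2 CPM in wt libraries 1 to 4. PHF8 libraries 3 and 4 lay below both wt libraries of that pair, while PHF8 libraries 1 and 2 lay above both of theirs. The log2 difference was 0.07 from libraries 1 and 2 and -0.43 from libraries 3 and 4 (limma, adjusted p = 0.31 and 0.0077), and -0.18 ± 0.16 over all libraries (limma, adjusted p = 0.52). The test of the difference between the pairs called IFNAR2, 1 of the 9 genes (0.50 ± 0.10; limma, adjusted p = 0.0036), where 30.5% of all genes passed that test. IFNAR2 shares 52.8% of its span with AP000295.9, and the genes may share reads.

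The kinases differed little. JAK2, the kinase of IFNGR2 (chromosome 9, 4985033 to 5128183, plus strand), gave 60.6, 59.1, 58.2 and 61.7 CPM in PHF8 libraries 1 to 4, against 62.9, 65.1, 68.1 and 64.1 CPM in wt libraries 1 to 4. The groups did not overlap, and the log2 difference of -0.12 ± 0.05 had an unadjusted p of 0.041 and missed the threshold after adjustment (limma, adjusted p = 0.13). JAK1, which serves both receptors (chromosome 1, 64833229 to 64966504, minus strand), averaged 73.1 ± 2.33 CPM in PHF8 and 69.3 ± 1.54 CPM in wt (log2 difference 0.08 ± 0.05). TYK2, the kinase of IFNAR1 (chromosome 19, 10350529 to 10380676, minus strand), averaged 167 ± 11.97 CPM in PHF8 and 187 ± 25.7 CPM in wt (-0.16 ± 0.11). Neither JAK1 nor TYK2 passed.

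The F279S line asked whether the mutant form differs from parental cells. Of the 9 genes, 0 passed (limma), 0 had an unadjusted p below 0.05 and voom called 0, where 0.0146% of all genes passed; with the replicate block 2.18% of all genes and 0 of the 9 passed. SOCS3 gave 4.67, 4.50, 9.35 and 9.39 CPM in F279S libraries 1 to 4, above the wt library of its number each time, with a log2 difference of 0.19 ± 0.34 and a 95% interval of -0.56 to 0.94. The other 8 genes lay between -0.14 (TYK2) and 0.09 (JAK1). The interval was widest for SOCS1, -0.94 to 1.10. In the test of the difference between the library pairs, 0.899% of all genes and 0 of the 9 passed.

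The PHF8 line set directly against F279S, which carries more PHF8 RNA, again gave SOCS3 as the gene that changed. Its mean was 2.57 ± 1.14 CPM in PHF8 and 6.98 ± 2.77 CPM in F279S (SD, n = 4 each), 2.71-fold lower in PHF8, and the groups did not overlap. The log2 change was -1.29 ± 0.34 (limma, adjusted p = 0.021), and -1.29 from each library pair. Leaving out PHF8 library 1 or 2 or F279S library 3 or 4 gave -1.09, -1.17, -1.13 and -1.13 with adjusted p of 0.065, 0.062, 0.055 and 0.060 (limma). The call was kept without PHF8 library 3 or 4 or F279S library 1 or 2. Without the libraries with collagen reads the log2 change was -1.25 ± 0.37 (limma, adjusted p = 0.057). As against wt, 1 of 9 genes passed, beside 20.1% of all genes tested. The comparisons share the PHF8 libraries, so the second is not independent of the first.

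With the replicate block, SOCS3 (limma, adjusted p = 2.5e-06) and IFNGR1 (-0.13 ± 0.04; limma, adjusted p = 0.027) passed, beside 41.1% of all genes. IFNGR1 missed the threshold with the library pair as a term and with each pair averaged (limma, adjusted p = 0.060 and 0.29). IFNGR1 averaged 60.9 ± 14.6 CPM in PHF8 and 66.6 ± 14.1 CPM in F279S. IFNAR2 once more differed between the library pairs (0.39 ± 0.10; limma, adjusted p = 0.019), as did 21.8% of all genes: it gave 0.10 from libraries 1 and 2 and -0.30 from libraries 3 and 4. The other 6 genes lay between -0.08 (JAK2) and 0.04 (IFNGR2) and did not pass.

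**Figure D2:**
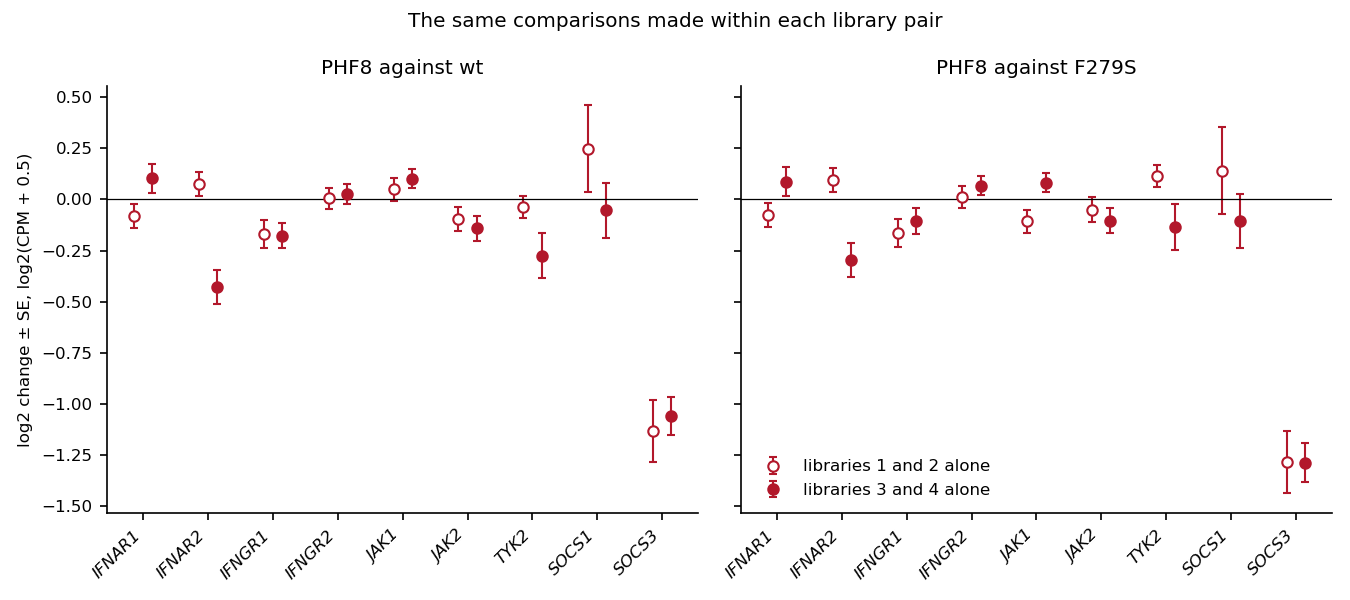
Log2 change ± SE (y axis) of the 9 genes (x axis) in PHF8 against wt and PHF8 against F279S, from libraries 1 and 2 (open) and from libraries 3 and 4 (filled). SOCS3 lies between -1.06 and -1.29 in every case, and IFNAR2 is on opposite sides of 0 in the pairs.

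The size of the split between library pairs can be set beside these changes. With group as a term, libraries 1 and 2 were lower than libraries 3 and 4 for 6 of the 9 genes, where 62.9% of all genes passed in either direction. The log2 differences were -1.26 ± 0.11 for SOCS1, -0.93 ± 0.07 for SOCS3, -0.57 ± 0.04 for IFNGR1, -0.37 ± 0.07 for IFNAR2, -0.32 ± 0.03 for IFNGR2 and -0.20 ± 0.06 for TYK2 (limma, adjusted p = 0.012 or less). JAK1, JAK2 and IFNAR1 did not pass, with values of 0.01, -0.03 and -0.04. For the 6 genes that passed, other than SOCS3, the split exceeded each fitted group difference in that experiment, and for SOCS3 it was smaller than both differences of PHF8.

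In the second experiment IFNGR1 was the receptor chain that differed most. ERDD cells, set against ERAA cells, had more IFNGR1 RNA and less IFNAR1 RNA. IFNGR1 stood at 98.3 and 104 CPM in ERDD libraries 1 and 2, 75.4 and 78.8 CPM in ERAA libraries 1 and 2 and 66.8 and 64.5 CPM in ERPHF8 libraries 1 and 2. No group overlapped another, with ERDD above ERAA and ERAA above ERPHF8. IFNGR1 rose by 0.39 ± 0.05 in ERDD against ERAA, by 0.62 ± 0.05 in ERDD against ERPHF8 and by 0.23 ± 0.05 in ERAA against ERPHF8 on the log2 scale (limma, adjusted p = 0.00020, 6.6e-05 and 0.0054). Without ERPHF8 library 2 the difference of ERAA from ERPHF8 was 0.20 and missed the threshold (limma, adjusted p = 0.055). ERDD was the highest and PHF8 the lowest of the 6 group means, although levels across the experiments were not tested.

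IFNGR2 stood at 141 and 142 CPM in ERDD libraries 1 and 2, 124 and 123 CPM in ERAA libraries 1 and 2 and 129 and 123 CPM in ERPHF8 libraries 1 and 2. ERDD lay above both other lines. It rose by 0.19 ± 0.04 in ERDD against ERAA (limma, adjusted p = 0.0036) and by 0.17 ± 0.04 in ERDD against ERPHF8 (limma, adjusted p = 0.011), and without ERDD library 1, ERDD library 2 or ERPHF8 library 2 the call against ERPHF8 was lost (0.17, 0.16 and 0.13; limma, adjusted p = 0.078, 0.087 and 0.12). TMEM50B, on the other strand, covers 61.3% of the IFNGR2 span and may share reads with it. TMEM50B stood at 104 to 105 CPM in ERDD, 84.3 to 84.8 CPM in ERAA and 88.9 to 91.8 CPM in ERPHF8. The IFNGR2 value less that of TMEM50B, a lower limit on what the genes do not share, came to 36.9 CPM in both ERDD libraries, 38.0 to 40.1 CPM in ERAA and 33.96 to 37.2 CPM in ERPHF8. That lower limit was not higher in ERDD than in ERAA, but a lower limit cannot show whether the unshared reads rose. If reads are shared, the values cannot be assigned to either gene.

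IFNAR1 was highest in ERAA. It stood at 92.1 and 90.1 CPM in ERDD libraries 1 and 2, 111 and 106 CPM in ERAA libraries 1 and 2 and 92.8 and 91.4 CPM in ERPHF8 libraries 1 and 2. IFNAR1 fell by 0.25 in ERDD against ERAA and rose by 0.24 ± 0.04 in ERAA against ERPHF8 (limma, adjusted p = 0.00096 and 0.0023), while ERDD and ERPHF8 overlapped (-0.02 ± 0.04). IFNAR2, its partner, did not pass in any of the 3 comparisons: its means were 69.8 ± 1.22 CPM in ERDD, 75.8 ± 6.99 CPM in ERAA and 77.6 ± 5.997 CPM in ERPHF8 (SD, n = 2 each).

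Of the kinases, JAK1 and TYK2 were higher in ERAA than in ERDD. JAK1 stood at 75.9 and 74.1 CPM in ERDD libraries 1 and 2, 92.9 and 84.7 CPM in ERAA libraries 1 and 2 and 75.7 and 80.3 CPM in ERPHF8 libraries 1 and 2. It fell by 0.24 in ERDD against ERAA and rose by 0.18 ± 0.06 in ERAA against ERPHF8 (limma, adjusted p = 0.0056 and 0.025). TYK2 followed the order ERAA, ERDD, ERPHF8, with 167 and 167 CPM in ERDD libraries 1 and 2, 186 and 178 CPM in ERAA libraries 1 and 2 and 152 and 154 CPM in ERPHF8 libraries 1 and 2. Its log2 changes were -0.12 ± 0.04 in ERDD against ERAA, 0.13 ± 0.04 in ERDD against ERPHF8 and 0.25 ± 0.04 in ERAA against ERPHF8 (limma, adjusted p = 0.023, 0.027 and 0.0012). The first was lost without either ERDD library (limma, adjusted p = 0.12 and 0.13) and the second without any 1 of the 4 libraries compared (limma, adjusted p = 0.13 to 0.15). The JAK1 fall was lost without ERDD library 2 (-0.22; limma, adjusted p = 0.052), and its rise without either ERPHF8 library (0.14 and 0.23; limma, adjusted p = 0.17 and 0.050). JAK2 did not pass in any of the 3 (-0.11, -0.03 and 0.08), with means of 69.7 ± 0.90 CPM in ERDD, 75.4 ± 5.96 CPM in ERAA and 71.2 ± 0.20 CPM in ERPHF8.

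Of the brakes, SOCS3 was again the one that changed. It stood at 0.61 and 0.58 CPM in ERDD libraries 1 and 2, 1.28 and 1.49 CPM in ERAA libraries 1 and 2 and 0.76 and 0.56 CPM in ERPHF8 libraries 1 and 2. ERAA lay above both other lines, which overlapped each other. Only the ERAA libraries reached the 1 CPM needed for testing. SOCS3 was thus tested through the group where it is high, and its calls carry that selection. SOCS3 fell by 0.78 in ERDD against ERAA and rose by 0.70 ± 0.15 in ERAA against ERPHF8 (limma, adjusted p = 0.0021 and 0.0057), while ERDD against ERPHF8 gave -0.08 ± 0.15. The ratios of means were 2.32-fold lower in ERDD than in ERAA and 2.08-fold higher in ERAA than in ERPHF8, more than the fitted changes, since adding 0.5 CPM shrinks the change of a gene this low. SOCS1 did not pass: its means were 2.68 ± 0.28 CPM in ERDD, 2.34 ± 0.0036 CPM in ERAA and 2.11 ± 0.28 CPM in ERPHF8, with 95% intervals of -0.13 to 0.45, -0.0032 to 0.58 and -0.17 to 0.41 for ERDD against ERAA, ERDD against ERPHF8 and ERAA against ERPHF8.

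Counted over the 9, 6 passed in ERDD against ERAA (2 higher, 4 lower), 3 in ERDD against ERPHF8 (3 higher) and 5 in ERAA against ERPHF8 (5 higher), beside 68.1%, 52.8% and 53.8% of all genes tested. As shares these were 66.7%, 33.3% and 55.6% of the 9, close to or below the background, so the number of these genes that passed is no result about them. Their median log2 changes were -0.12, -0.02 and 0.18, where the medians of all genes were -0.00086, -0.02 and -0.04. ERDD also held 0.78 to 0.95 log2 units less PHF8 RNA than the other lines (-0.95 against ERAA, -0.78 against ERPHF8), and its part in these changes was not tested.

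**Figure D3:**
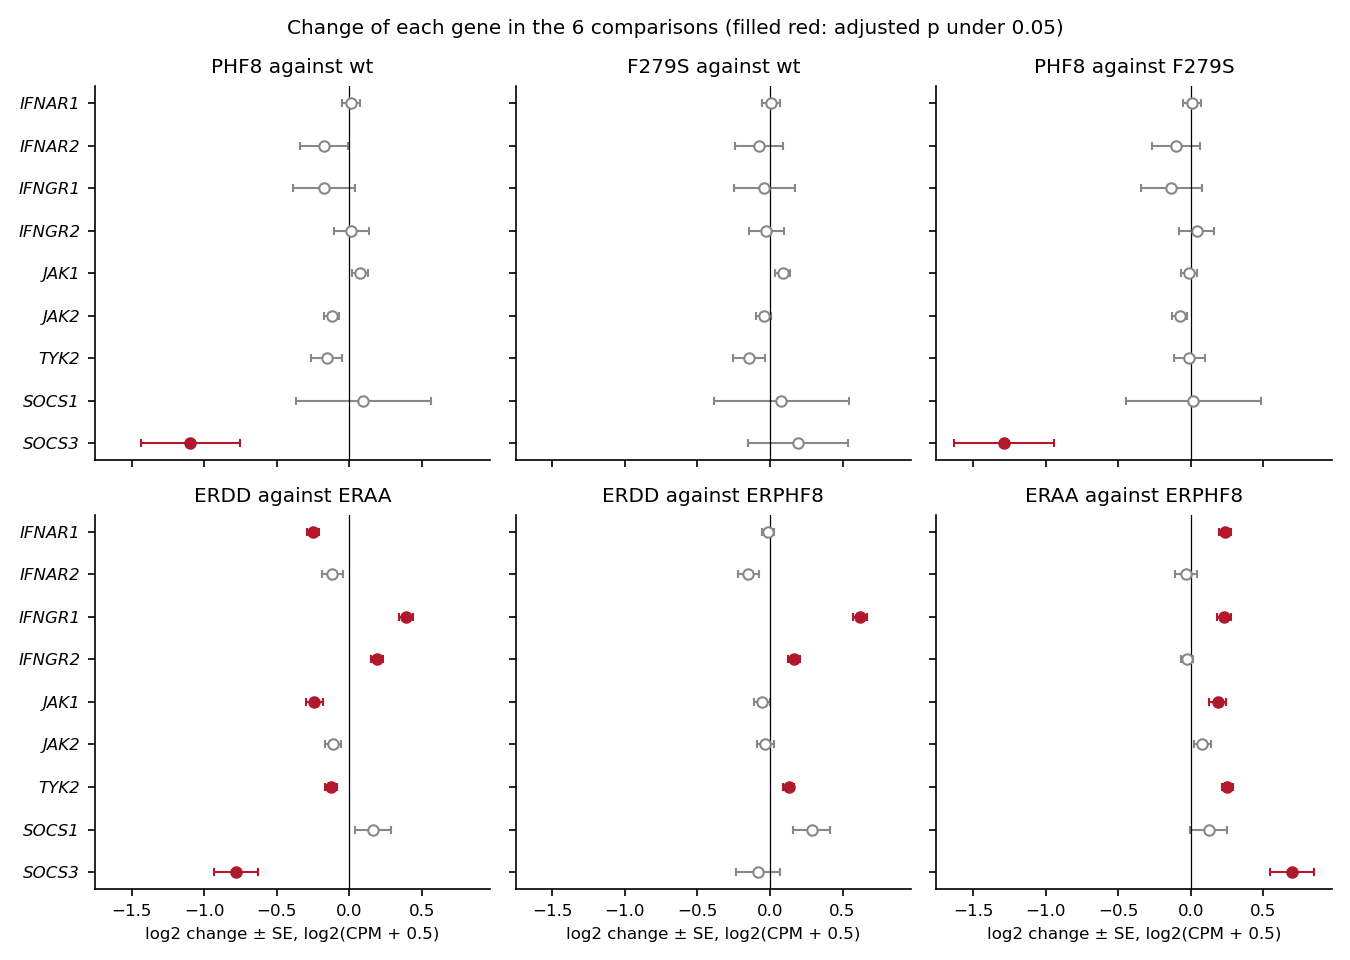
Log2 change ± SE (x axis, on log2(CPM + 0.5)) of the 9 genes (y axis) in the 6 comparisons; filled red points passed at an adjusted p under 0.05. SOCS3 stands far left of 0 in 3 panels, PHF8 against wt and against F279S and ERDD against ERAA, while IFNGR1 lies right of 0 in all 3 comparisons among the ER lines.

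The genes that work beside the 9 were described from lists chosen by role. The interferon genes themselves were below 1 CPM: 21 were in the table, the highest value in any library was 0.145 CPM and a library's count of 0 still leaves room for 0.0582 to 0.164 CPM, so differences in the ligands were not detectable at this depth. Of the relay that carries the signal onward, STAT2, STAT3, STAT4, STAT5A, STAT5B, STAT6, IRF9 and JAK3 were examined, and 7 of these 8 genes were tested, JAK3 being too low. In PHF8 against wt 1 rose and 1 fell, beside 21% of all genes tested that passed. STAT4, which relays IL-12, stood at 1.92 ± 0.22 CPM in PHF8, against 0.80 ± 0.23 CPM in wt. It was at most 0.96 CPM in wt and 0.93 CPM in F279S. STAT4 was thus tested only through the PHF8 libraries, where it is high, and its calls carry that selection. STAT5B, which relays cytokine growth signals, fell to 53.5 ± 2.75 CPM in PHF8, against 69.7 ± 4.75 CPM in wt. STAT2 and IRF9, which act below the type I receptor, did not pass (0.15 ± 0.28 and 0.17 ± 0.14). In PHF8 against F279S the count was again 1 higher (STAT4) and 1 lower (STAT5B), and in F279S against wt it was 0, beside 20.1% and 0.0146% of all genes tested.

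Among the ER lines IRF9 differed more than any receptor chain or kinase of the 9, and STAT2 changed with it. IRF9 averaged 77.5 ± 0.08 CPM in ERDD, 30.2 ± 2.05 CPM in ERAA and 48.4 ± 1.05 CPM in ERPHF8 (SD, n = 2 each), a rise of 1.35 ± 0.06 in ERDD against ERAA on the log2 scale (limma, adjusted p = 7.2e-07). STAT2 averaged 79.4 ± 1.25 CPM in ERDD, 52.8 ± 4.19 CPM in ERAA and 60.4 ± 0.45 CPM in ERPHF8. The order ERDD, ERPHF8, ERAA held for both, whereas IFNAR1 and JAK1 were highest in ERAA. Over the 7 tested, 2 rose and 2 fell in ERDD against ERAA, 5 rose and 1 fell in ERDD against ERPHF8, and 5 rose and 2 fell in ERAA against ERPHF8. Of all genes tested, 68.1%, 52.8% and 53.8% passed in these comparisons. The medians of the 7 were -0.0024, 0.24 and 0.14.

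Of the 17 other SOCS genes and brakes, 2 rose and 3 fell in PHF8 against wt and 3 rose and 3 fell in PHF8 against F279S, with medians of -0.07 and -0.06. In F279S against wt 0 passed. The shares of all genes tested that passed were 21%, 20.1% and 0.0146%. CISH, the SOCS-family inhibitor of STAT5 signalling, fell to 9.55 ± 0.71 CPM in PHF8, against 17.9 ± 1.34 CPM in F279S and 16.2 ± 0.40 CPM in wt (-0.87 ± 0.08 and -0.74 ± 0.08; limma, adjusted p = 2.2e-05 and 5.8e-05). PTPN6, the phosphatase SHP-1, fell to 95.1 ± 9.64 CPM in PHF8, against 139 ± 12.02 CPM in F279S and 120.5 ± 12.2 CPM in wt, and PTPRC, the phosphatase CD45, rose to 349.6 ± 14 CPM in PHF8, against 287 ± 15.8 CPM in F279S and 274 ± 9.09 CPM in wt. SOCS7 fell in PHF8 against wt (-0.22 ± 0.06) and SOCS2 rose in PHF8 against F279S (0.48 ± 0.11).

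Among the ER lines, USP18, which displaces JAK1 from IFNAR2 and is itself an interferon-stimulated gene, changed most of the brakes named. It stood at 46.2 ± 0.33 CPM in ERDD, 5.24 ± 0.17 CPM in ERAA and 13.4 ± 0.30 CPM in ERPHF8, a rise of 3.02 ± 0.06 in ERDD against ERAA (limma, adjusted p = 2.1e-08). SOCS7 fell to 36.1 ± 2.32 CPM in ERDD, against 50.4 ± 2.22 CPM in ERAA and 50.7 ± 0.06 CPM in ERPHF8. CISH stood at 9.08 ± 0.29 CPM in ERDD, 11.7 ± 0.09 CPM in ERAA and 7.64 ± 0.29 CPM in ERPHF8, and PTPN6 at 108 ± 2.86 CPM in ERDD, 127 ± 1.96 CPM in ERAA and 92.8 ± 1.01 CPM in ERPHF8. In all, 4 of 17 rose and 8 fell in ERDD against ERAA, 5 rose and 7 fell in ERDD against ERPHF8, and 3 rose and 4 fell in ERAA against ERPHF8. Of all genes tested, 68.1%, 52.8% and 53.8% passed in these comparisons. The medians of the 17 were -0.13, -0.17 and -0.07.

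Other receptors that use these kinases went both ways. Of 11 tested in the first experiment, 1 rose and 2 fell in PHF8 against wt: IL12RB1, a chain of the IL-12 receptor, rose to 18.7 ± 1.32 CPM in PHF8, against 13.0 ± 0.88 CPM in wt, while EPOR, the erythropoietin receptor, and CSF3R, the receptor of G-CSF, fell to 10.2 ± 0.30 and 95.2 ± 5.54 CPM in PHF8, against 17.6 ± 4.56 and 137 ± 30.9 CPM in wt. In PHF8 against F279S IL12RB1 rose and EPOR fell, and in F279S against wt 0 passed. The shares of all genes tested were 21% in PHF8 against wt, 20.1% in PHF8 against F279S and 0.0146% in F279S against wt. Of 13 tested among the ER lines, 2 rose and 7 fell in ERDD against ERAA, 3 rose and 5 fell in ERDD against ERPHF8 and 7 rose and 0 fell in ERAA against ERPHF8. Their medians were -0.32, -0.04 and 0.29. Of all genes tested, 68.1%, 52.8% and 53.8% passed in these comparisons, so the number of receptors that passed is no result about them. CSF3R stood at 70.9 ± 0.89 CPM in ERDD, 148 ± 3.84 CPM in ERAA and 109 ± 2.55 CPM in ERPHF8, IL12RB1 at 29.6 ± 0.92 CPM in ERDD, 15.8 ± 0.05 CPM in ERAA and 17.01 ± 0.15 CPM in ERPHF8, and IL10RA, the ligand-binding chain of the IL-10 receptor, at 13.1 ± 0.10 CPM in ERDD, 24.7 ± 0.56 CPM in ERAA and 16.8 ± 0.60 CPM in ERPHF8.

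PHF8 against wt and ERDD against ERAA share no library. Of the 44 genes among the 9 and these lists that were tested in both, 9 passed in both: SOCS3, STAT5B, CISH, PTPN6, SOCS7, EPOR and CSF3R were lower in both, IL12RB1 was higher in both, and PIAS3, a STAT3 inhibitor, was higher in PHF8 and lower in ERDD. Of all 13504 genes tested in both, 1915 passed in both (14.2%), and 65.1% of those had the same direction. SOCS3 entered the test of ERDD against ERAA only through the ERAA libraries, where it is high. ERAA carries a form of PHF8 itself and is no parental control, so the comparisons differ in kind.

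**Figure D4:**
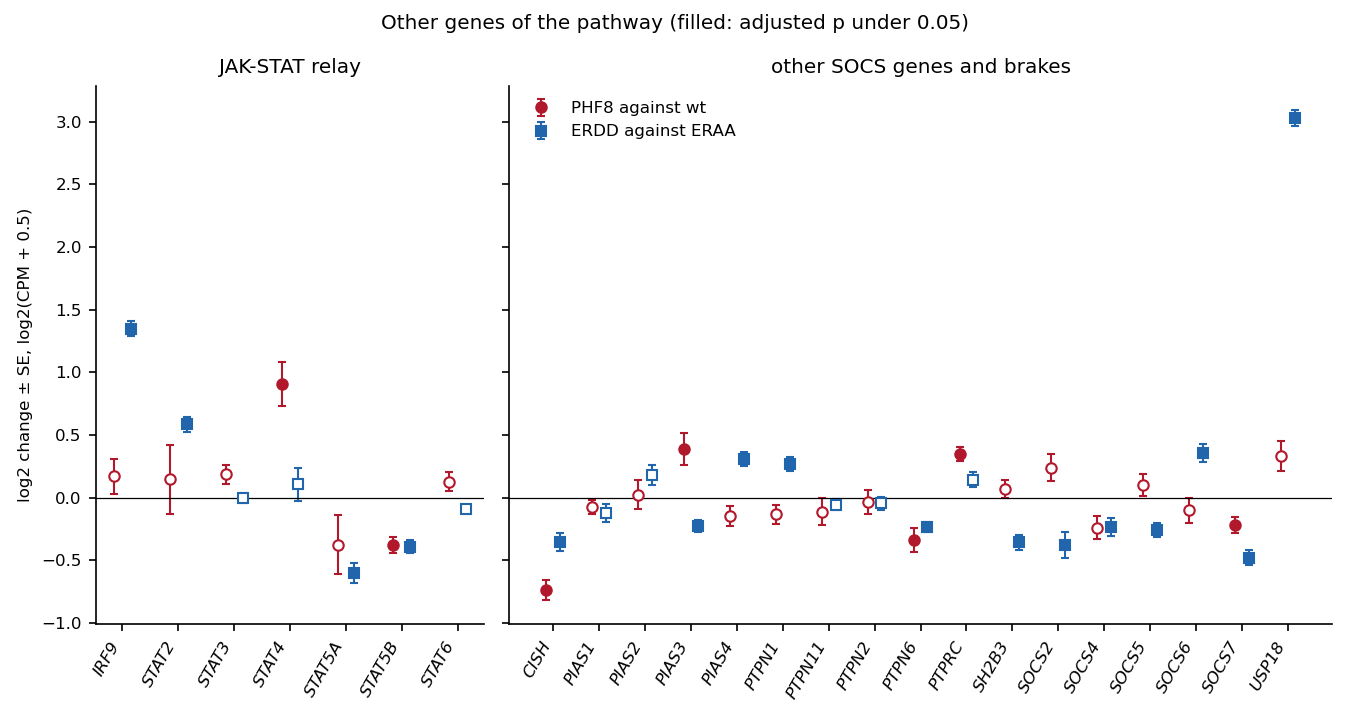
Log2 change ± SE (y axis) of the tested JAK-STAT relay genes (left) and of the other SOCS genes and brakes (right) in PHF8 against wt (red circles) and ERDD against ERAA (blue squares); filled symbols passed at an adjusted p under 0.05. IRF9 and USP18 stand highest in ERDD against ERAA, at 1.35 and 3.02, and at 0.17 and 0.33 in PHF8 against wt.

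The pattern of each gene over the 18 libraries was compared with that of 13504 genes tested in both experiments, after subtracting each experiment's mean from log2(CPM + 0.5) and leaving out overlapping genes. These correlations are descriptions: the libraries share the split between library pairs and the group differences. SOCS3 was most like HYAL3 (r = 0.986) and ATP2A3 (0.980), SOCS1 most like WDR86 (0.952) and SLC26A3 (0.951), and IFNGR2 most like ID2 (0.9751) and PLOD1 (0.959). IFNAR2 was nearest to YPEL1 and SRGAP2C (0.967 each), IFNGR1 to CSTB (0.942) and RAB11FIP5 (0.934), and TYK2 to GMIP (0.944) and OSBPL7 (0.938). JAK1 (nearest RP5-972B16.2, 0.873), JAK2 (ZNF621, 0.853) and IFNAR1 (RAP1A, 0.845), the genes that the library pairs did not separate, had less close neighbours. Among the 9 themselves the highest correlation was that of SOCS1 with IFNGR2 (0.922), followed by IFNGR1 with IFNGR2 (0.881), while the chains of the type I receptor gave -0.04.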

How the data were processed

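RNA-seq of 18 THP-1 libraries in 6 groups was used, each library mapped to its group by its label. The deposited values are RPKM over each gene's full span, with the length found from the values; the authors' tools were STAR 2.7.0c, SAMtools 1.9 and DESeq2 on hg38, per the submitters' processing notes. Multiplying RPKM by the span in kb gave CPM, and with the library total every value came out as a whole read within 0.001 (100% of values). The counting tool, its strand setting, and its handling of introns and overlapping genes are nowhere stated in the labels or files, so values of overlapping genes may share reads.

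Each experiment was fitted in one model (group only, all its libraries) with limma 3.58.1 in R 4.3.3, with a mean-variance trend, on log2(CPM + 0.5), over genes with at least 1 CPM in 4 libraries (experiment 1, 13683 genes) or 2 (experiment 2, 13831 genes). P-values were adjusted over all genes tested (Benjamini-Hochberg, threshold 0.05). The fit was run on simulated reads with known changes. The simulated libraries had no split between library pairs, so that run does not cover the split in experiment 1. The sequencing depth limits mainly SOCS1 and SOCS3, and limits from a count of 0 (3 reads) cover counting error only.

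Named were all 9 genes, up to 4 called genes of smallest p in each pathway list and comparison, and the 2 genes most like each of the 9. PIAS3, and STAT2 and IRF9 in experiment 1, and genes given in all 3 ER lines for comparison, were added after their values were seen. A gene of the relay list is not reported here and was left out of that list's counts. The 9 genes and the lists were chosen with earlier results of these data known.

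In experiment 1 deviations from the group means correlated by 0.484 to 0.908 between libraries of the same replicate number (12 pairs). Other libraries of the same library pair gave 0.235 to 0.819, and libraries of different pairs -0.86 to -0.352. The ranges within a library pair overlap. F279S library 1 gave 0.809 with wt library 1 and 0.819 with wt library 2, while F279S library 3 gave 0.908 with wt library 3 and 0.747 with wt library 4. These values show the split between library pairs and do not settle whether the numbers pair libraries. The numbers are in the labels, which do not say what they share. Alternatives were other pseudocounts (0.1 and 1), no filter, median-ratio scaling, voom on recovered reads, the replicate block, library-pair fits, only the groups compared and leaving out each library; leaving out the libraries with collagen reads and crossing the ER pairing were chosen after seeing the data.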

Additional observations from a re-analysis of the deposited data

Results flagged for a closer look

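Among the 27 tests of whether a group difference of the 9 genes varied between the library pairs of experiment 1, 2 passed, both for IFNAR2 and both involving the same PHF8 libraries. Of all genes, 30.5% passed that test in PHF8 against wt, 21.8% in PHF8 against F279S and 0.899% in F279S against wt. The number of the 9 genes that passed is thus no result about them. The log2 difference of PHF8 from wt was higher by 0.50 ± 0.10 in libraries 1 and 2 than in libraries 3 and 4 (limma, adjusted p = 0.0036), and that of PHF8 from F279S by 0.39 ± 0.10 (limma, adjusted p = 0.019). IFNAR2 averaged 68.0 CPM in PHF8 libraries 1 and 2, 63.6 CPM in F279S and 64.5 CPM in wt, and 71.7 CPM in PHF8 libraries 3 and 4, 88.3 CPM in F279S and 96.8 CPM in wt. The PHF8 line thus had nearly the same level in both pairs while the other lines were higher in libraries 3 and 4. The labels do not say what the pairs stand for. The 27 sets of 4 libraries (9 genes in 3 groups) were also examined for 1 library far from the others, and 0 passed Dixon's criterion. Where the library pairs split a group, its largest gap lies in the middle and a single library can hardly pass, so this says little for the 6 genes that differed between the pairs.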

How the results depend on the processing

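Of 16 called results for the 9 genes, 8 kept the call in every refit run and 8 lost it in at least 1. In 199 refits of the called results the call was lost 27 times and the sign changed 0 times. Of 38 uncalled results, refitted 647 times, 11 refits gained a call and 70 had the other sign without a call, with values of at most 0.248 in size. The causes of the changes were not tested, beyond the smaller number of libraries in some fits.

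The number of the 9 genes called in PHF8 against wt (1) was 0 with no filter, 0 with voom, 0 without the libraries with collagen reads, and 2 with the replicate block, with the library pair as a term, from libraries 1 and 2 and from libraries 3 and 4. In PHF8 against F279S (1) it was 0 without the libraries with collagen reads, and 2 with the replicate block and from either pair. The calls over all 13683 genes moved too. In PHF8 against wt they were 7029 from libraries 1 and 2, 5765 from libraries 3 and 4 and 5595 with the library pair as a term, against 2874. With voom they were 2828, and with no filter 2861 of 18756 genes. In PHF8 against F279S the pairs gave 7366 and 4821, against 2750. Leaving out each library gave 0 to 1 in both comparisons, beside 2215 to 2612 calls over all genes in PHF8 against wt and 2070 to 2448 in PHF8 against F279S. In the ER comparisons, where that leaves a lone library in a group, the number of the 9 called moved too, as did that over all genes. JAK2 and IFNAR2 in ERDD against ERAA and JAK2 in ERAA against ERPHF8 passed without ERAA library 2 (-0.19, -0.21 and 0.16). Fitting only the 2 groups compared called 5 in ERDD against ERAA (6 in the main fit), where TYK2 was lost (limma, adjusted p = 0.057). It called 4 in ERAA against ERPHF8 (5), where JAK1 was lost (limma, adjusted p = 0.057). In ERDD against ERPHF8 (3) it called 4, where IFNAR2 passed as lower (-0.15, limma, adjusted p = 0.016). Over all 13831 genes it called 8934, 6314 and 9195 in this order, against 9415, 7436 and 7305.

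In experiment 1 the replicate block called 5670, 298 and 5620 genes in PHF8 against wt, F279S against wt and PHF8 against F279S, against 2874, 2 and 2750 without it; averaging each pair called 1775, 1 and 1594 and leaving out the libraries with collagen reads 2151, 2 and 1497. F279S against wt gave 1943 calls from libraries 1 and 2 and 12 from libraries 3 and 4. In experiment 2 the numbers did not pair the libraries (r of -0.336 to 0.104), and the replicate block called 9068, 6801 and 6900 genes, against 9415, 7305 and 7436, with 6, 3 and 5 of the 9. Pairing ERAA and ERPHF8 crosswise called 7853 genes and 5 of the 9. The block changed no other call on the 9.

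Uncalled values took the other sign as follows. With median-ratio scaling: in PHF8 against wt IFNAR1 -0.0092 and IFNGR2 -0.0054, in PHF8 against F279S SOCS1 -0.0036 and IFNAR1 -0.024, in ERDD against ERPHF8 IFNAR1 0.013 and in ERAA against ERPHF8 IFNGR2 0.0028. With voom, SOCS1 in PHF8 against F279S was -0.049. From libraries 1 and 2: IFNAR2 0.075 and IFNAR1 -0.080 in PHF8 against wt, IFNAR1 -0.0051 in F279S against wt, and TYK2 0.11, IFNAR2 0.095 and IFNAR1 -0.075 in PHF8 against F279S. From libraries 3 and 4: SOCS1 -0.054 in PHF8 against wt, and JAK1 0.082 and SOCS1 -0.10 in PHF8 against F279S. Without the libraries with collagen reads: IFNGR1 0.062, IFNAR2 0.016 and IFNGR2 0.021 in F279S against wt, and JAK1 0.0080 and SOCS1 -0.012 in PHF8 against F279S.

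Leaving out 1 library at a time spanned, in PHF8 against wt, -0.20 to 0.35 (SOCS1), -0.043 to 0.051 (IFNAR1) and -0.044 to 0.081 (IFNGR2). In F279S against wt it spanned -0.15 to 0.078 (IFNGR1), -0.21 to 0.35 (SOCS1), -0.18 to 0.053 (IFNAR2), -0.0067 to 0.022 (IFNAR1) and -0.083 to 0.040 (IFNGR2). In PHF8 against F279S it spanned -0.035 to 0.013 (JAK1), -0.25 to 0.25 (SOCS1), -0.078 to 0.058 (TYK2), -0.19 to 0.0015 (IFNAR2), -0.049 to 0.045 (IFNAR1) and -0.020 to 0.11 (IFNGR2). Among the ER lines it spanned -0.21 to 0.042 (SOCS3, ERDD against ERPHF8), and in ERAA against ERPHF8 -0.0014 to 0.16 (JAK2), -0.13 to 0.059 (IFNAR2) and -0.061 to 0.0082 (IFNGR2). A lone library left in a group is assumed to vary like the other groups. Depth limits SOCS1 and SOCS3 most, with as few as 17 and 23 reads in a library.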
